A study of Mus musculus with 6 samples.

Results

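The genes described here are 9 genes of resting T cells and of T cell traffic to lymphoid organs: Klf2, Klf3, S1pr1, Ccr7, Il7r, Tcf7, Lef1, Foxo1, and Foxp1. T cells are known to lower these genes on activation. Each was found by its symbol among the 47643 genes of the count table. All 9 were among the 11877 genes with at least 10 reads over the 6 samples, which were tested together. The samples were CD4+ T cells positive for both forms of the Timer reporter (Blue+Red+), sorted from spleens of Tg4 Tiger Nr4a3-Tocky mice. In these mice the Tg4 T cell receptor transgene recognizes a myelin basic protein (MBP) peptide, the Timer protein is made under control of Nr4a3, a gene switched on by T cell receptor signaling, and Tiger is a GFP reporter of Il10. Every mouse had been given 80 μg of 4Y MBP peptide, 24 h later 800 μg of antibody, and a further 30 min later 8 μg of the same peptide, and spleens were taken 4 h after the second peptide. The antibody was an isotype control in 2 samples, anti-PD1 in 2, and anti-Lag3 in 2, the last 2 antibodies blocking inhibitory receptors of T cells. All groups had therefore met peptide on both occasions, and no sample of resting T cells is analysed here, so the values below compare antibodies among reactivated cells of 1 transgenic specificity. Age is not given in the labels, and the methods state that both sexes were used and that cells of biological replicate mice were stained separately for the sort.

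Naive and memory T cells stay in a quiescent state that is actively held by transcription factors. FOXO1 sits near the top of this network: it is kept in the nucleus when PI3K and AKT signaling is low, and there it switches on Klf2, Il7r, and the homing gene Ccr7. KLF2 in turn drives S1pr1, the receptor that lets T cells leave lymphoid organs, while TCF1 (encoded by Tcf7), LEF1, and FOXP1 maintain the naive and memory programs. Strong receptor signaling lowers many of these genes, in part by driving FOXO1 out of the nucleus, a step that mRNA counts do not measure.

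Total counts ran from 2107715 to 2648920 per sample, and 3 counts amounted to between 1.11 and 1.44 CPM (the count scaled to the library size, itself scaled by TMM, on a per-million basis). The depth limited S1pr1 most, with 5 to 16 reads per sample, and left Klf2, Klf3, and Il7r between 21 and 139 reads, while the other 5 genes had 171 to 1649. Reads were counted at the 3′ ends of transcripts, so each gene is compared only with itself across samples. T cell markers summed to between 2035 and 2413 CPM, with Cd4 at 131 to 190 CPM. Of the CD8 markers, Cd8a was at 1.86 to 6.84 CPM and Cd8b1 at 27.8 to 49.5 CPM. Neither antibody target was called as changed by edgeR's quasi-likelihood test in any comparison, with Pdcd1 at 12.3 to 17.1 CPM and Lag3 at 2.60 to 7.59 CPM, and nor was Nr4a3, at 29.4 to 51.4 CPM.

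Anti-PD1 samples had lower mRNA for Klf3, Lef1, and Foxp1 than isotype samples. The fitted levels were 2.03-fold lower for Klf3, 1.47-fold lower for Lef1, and 1.33-fold lower for Foxp1. The remaining 6 genes did not pass the test. Among them Ccr7 and Il7r had higher values in both anti-PD1 samples than in both isotype samples, and Foxo1 had nearly equal means of 95.6 CPM in anti-PD1 and 95.4 CPM in isotype samples. With anti-Lag3 none of the 9 genes passed. By the edgeR quasi-likelihood test, with p-values adjusted after Benjamini and Hochberg over all tested genes, 3 of 9 were called with anti-PD1 against isotype, all lower, where 0.901% of all tested genes were called, and 0.269% were called lower. An unadjusted p under 0.05 was found for 6 of 9 genes, and for 8.12% of all genes. The 2 groups did not overlap for 7 of 9 genes, 5 lower and 2 higher with anti-PD1, against 37.4% of all genes, 18.2% lower and 19.2% higher. The median log2 fold change was -0.38 over the 9 genes and 0.00 over all genes. The 9 genes were chosen with earlier results of these data known. The shares in this and the other comparisons are therefore not independent of that choice.

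**Figure D1:**
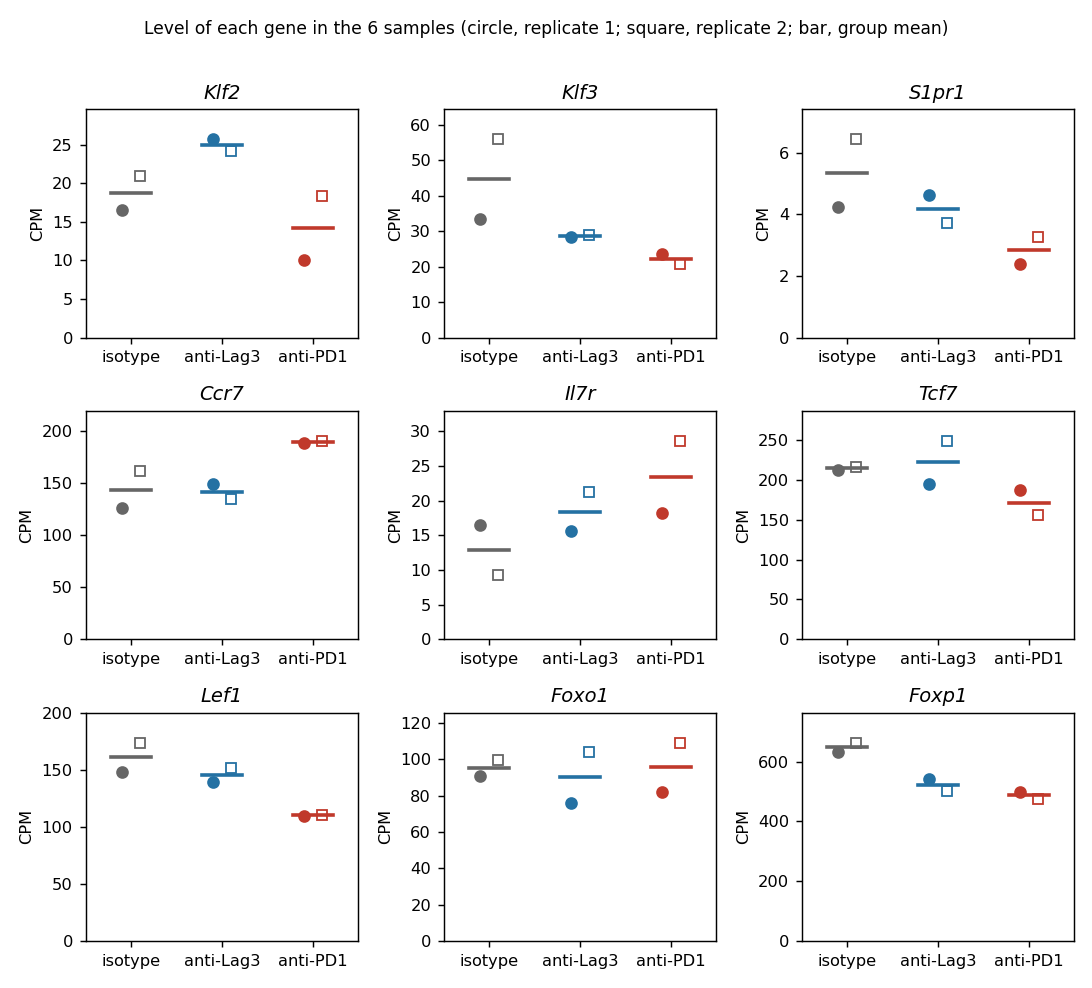
Level of each of the 9 genes in CPM (y axis, starting at 0) in the isotype, anti-Lag3, and anti-PD1 samples (x axis). Circles are replicate 1, squares replicate 2, and bars group means. The anti-PD1 samples lie below both isotype samples for Klf3, S1pr1, Tcf7, Lef1, and Foxp1 and above both for Ccr7 and Il7r, while Klf2 and Foxo1 overlap.

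Although the sort took CD4+ cells, markers of some other cell types differed between the groups. The 8 B cell markers summed to 133 and 147 CPM in isotype, 67.1 and 60.9 CPM with anti-PD1, and 89.8 and 132 CPM with anti-Lag3. All 7 that could be tested had negative fitted changes with anti-PD1, Igkc and Ighm were called lower by edgeR, and Cd79a had no read in any sample. The 10 macrophage and dendritic cell markers summed to 58.4 and 49.9 CPM in isotype, 15.8 and 31.1 CPM with anti-PD1, and 26.6 and 28.6 CPM with anti-Lag3. Of the 7 that could be tested, 6 had negative fitted changes with anti-PD1, and C1qa was called lower. Cd68 went the other way, at 5.75 and 3.68 CPM with anti-PD1 and 2.83 and 2.01 CPM in isotype. The 2 CD8 T cell markers summed to 54.7 and 48.3 CPM, 34.5 and 29.8 CPM, and 33.7 and 32.7 CPM in the same order. NK cell sums overlapped, at 8.01 and 1.21 CPM in isotype and 4.79 and 7.77 CPM with anti-PD1. Red cell sums also overlapped, at 33.5 and 23.7 CPM in isotype and 9.10 and 25.4 CPM with anti-PD1. Neutrophil sums were 7.54 and 19.7 CPM in isotype and 6.71 and 5.32 CPM with anti-PD1. T cell markers differed as well. The anti-PD1 samples lay below both isotype samples for 6 of 8, where 18.2% of all genes did, and above for Cd2, where 19.2% did. The median log2 fold change of the 8 was -0.28, with Cd3e at -0.38 and Cd4 at -0.32. None of the 8 was called by edgeR, and 5 had an unadjusted p under 0.05, where 8.12% of all genes did. The regulatory T cell markers Foxp3 and Ikzf2 summed to 193 and 210 CPM in isotype, 189 and 187 CPM with anti-PD1, and 183 and 182 CPM with anti-Lag3. Foxp3 alone was at 2.36 and 16.1 CPM, 3.35 and 6.13 CPM, and 5.06 and 12.3 CPM in the same order, and overlapped. Ikzf2 lay below both isotype samples with either antibody. B cells also express several of the 9 genes, among them Foxp1, Klf2, and Ccr7, and the part of these shifts in the lower values of Klf3, Lef1, and Foxp1 was not tested. In such bulk samples fewer cells that express a gene and less RNA per cell cannot be told apart.

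The Krüppel-like factors Klf2 and Klf3 are zinc finger transcription factors of the same family. Klf2 is the activator that holds T cells in quiescence and drives S1pr1, and Klf3 is mainly a repressor that binds the same kind of CACCC sequence. Klf3 stood at 33.5 and 55.9 CPM in the isotype samples, at 23.5 and 20.9 CPM with anti-PD1, and at 28.3 and 29.0 CPM with anti-Lag3. Both isotype samples were above all 4 antibody-treated samples, and the second isotype sample was far above the first. The means were 44.7 ± 15.9 CPM (SD, n = 2) in isotype, 28.6 ± 0.508 CPM with anti-Lag3, and 22.2 ± 1.86 CPM with anti-PD1. The log2 fold change with anti-PD1 was -1.02 (SE 0.27, 95% interval -1.56 to -0.48, adjusted p = 0.0482 by edgeR), the last of the 107 genes called when ordered by p. The isotype replicates differed 1.67-fold for Klf3, and 7.35% of the 3525 genes within 2-fold of its mean level had isotype replicates at least as far apart. Without isotype replicate 2 the log2 fold change was -0.60 (adjusted p = 0.722 by edgeR), without anti-PD1 replicate 1 it was -1.11 (adjusted p = 0.239), and without anti-PD1 replicate 2 it was -0.94 (adjusted p = 0.516). DESeq2 gave the same size, -1.02, with an adjusted p of 0.374. Against isotype, anti-Lag3 gave -0.65 (SE 0.26, adjusted p = 0.699), and the difference between anti-PD1 and anti-Lag3 was -0.37 (SE 0.28, adjusted p = 0.903 by edgeR).

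Klf2 did not share the order of Klf3. Its levels were 16.5 and 20.9 CPM in isotype, 10.1 and 18.4 CPM with anti-PD1, and 25.7 and 24.1 CPM with anti-Lag3. Both anti-Lag3 samples were above the other 4, and the anti-PD1 and isotype samples overlapped because the second anti-PD1 sample lay between the isotype samples. Fitted log2 fold changes were -0.38 with anti-PD1 (SE 0.34, 95% interval -1.07 to 0.30, adjusted p = 0.880 by edgeR) and 0.41 with anti-Lag3 (SE 0.32, 95% interval -0.24 to 1.05, adjusted p = 0.931). Taken directly, anti-PD1 was 0.79 below anti-Lag3 on the log2 scale (log2 fold change -0.79, SE 0.33, adjusted p = 0.644 by edgeR), which did not pass the test.

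S1pr1 encodes the sphingosine-1-phosphate receptor of T cell egress and is a target of KLF2. It was read 9 and 16 times in isotype, 5 and 8 times with anti-PD1, and 11 and 10 times with anti-Lag3. In CPM these were 4.24 and 6.44, then 2.40 and 3.27, then 4.64 and 3.71. The anti-PD1 samples were the lowest of the 6, and isotype and anti-Lag3 overlapped. Anti-PD1 against isotype gave a log2 fold change of -0.90 with an SE of 0.72 (95% interval -2.35 to 0.54, adjusted p = 0.854 by edgeR). At this depth the interval holds both no change and a fall larger than that of Klf3.

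Ccr7 encodes the chemokine receptor that brings T cells into lymph nodes and the T cell zone of the spleen. Its levels were 125 and 161 CPM in isotype, 188 and 190.1 CPM with anti-PD1, and 148 and 134 CPM with anti-Lag3. The anti-PD1 samples agreed within 1.01-fold and stood above the other 4 samples, while isotype and anti-Lag3 overlapped. For Ccr7 the log2 fold change with anti-PD1 was 0.40 (SE 0.14, 95% interval 0.12 to 0.68, adjusted p = 0.247 by edgeR) against isotype and 0.42 (SE 0.14, adjusted p = 0.337) against anti-Lag3. Against isotype, anti-Lag3 was at -0.02 (SE 0.14, 95% interval -0.30 to 0.26). Neither difference passed the adjusted threshold, and the fitted direction of Ccr7 with anti-PD1 was opposite to that of Klf3, Lef1, and Foxp1.

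Il7r encodes the IL-7 receptor α chain, through which resting T cells receive survival signals. Its levels were 16.5 and 9.26 CPM in isotype, 18.2 and 28.6 CPM with anti-PD1, and 15.6 and 21.2 CPM with anti-Lag3. Both anti-PD1 samples were above both isotype samples, the nearest pair by 1.71 CPM, and the anti-Lag3 samples overlapped both other groups. The log2 fold change with anti-PD1 was 0.89 (SE 0.35, 95% interval 0.18 to 1.60, adjusted p = 0.419 by edgeR), and with anti-Lag3 0.53 (SE 0.36, adjusted p = 0.910). Replicates of Il7r differed 1.78-fold in isotype, the widest isotype spread of the 9 genes, and 1.57-fold with anti-PD1.

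Tcf7 and Lef1 encode the TCF1 and LEF1 factors, which bind the same DNA sequence and overlap in function in T cells. Lef1 stood at 148 and 174 CPM in isotype, 109.7 and 110.8 CPM with anti-PD1, and 140.0 and 152 CPM with anti-Lag3. The anti-PD1 samples were the lowest and nearly equal, and the anti-Lag3 and isotype samples overlapped. The log2 fold change with anti-PD1 was -0.55 (SE 0.14, 95% interval -0.84 to -0.27, adjusted p = 0.0412 by edgeR). Leaving out isotype replicate 2 gave -0.43 (adjusted p = 0.513), leaving out anti-PD1 replicate 1 gave -0.54 (adjusted p = 0.340), and leaving out anti-PD1 replicate 2 gave -0.56 (adjusted p = 0.382). DESeq2 gave -0.55 with an adjusted p of 0.146. Against anti-Lag3 the difference was -0.41 (SE 0.14, adjusted p = 0.440 by edgeR), and anti-Lag3 against isotype was -0.15 (SE 0.14, adjusted p = 0.946).

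Tcf7 had levels of 213 and 217 CPM in isotype, 187 and 156 CPM with anti-PD1, and 195 and 249 CPM with anti-Lag3. The anti-PD1 samples were again the lowest of the 6, and the anti-Lag3 samples lay on either side of the isotype samples. In the fit, Tcf7 with anti-PD1 had a log2 fold change of -0.33 (SE 0.13, 95% interval -0.60 to -0.06, adjusted p = 0.448 by edgeR), in the direction of Lef1 and smaller, without passing the test. The difference from anti-Lag3 was -0.38 (SE 0.13, adjusted p = 0.440 by edgeR).

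Foxo1 and Foxp1 encode forkhead factors, and in T cells FOXP1 is known to oppose FOXO1 at Il7r. Foxp1 had the most reads of the 9 genes and the smallest error. Its levels were 631 and 664 CPM in isotype, 499 and 476 CPM with anti-PD1, and 542 and 503 CPM with anti-Lag3. The isotype samples were above the other 4, and the anti-PD1 samples were below both anti-Lag3 samples by a margin of 4.12 CPM. The means were 647 ± 23.5 CPM (SD, n = 2) in isotype, 523 ± 27.9 CPM with anti-Lag3, and 488 ± 15.9 CPM with anti-PD1. The log2 fold change with anti-PD1 was -0.41 (SE 0.10, 95% interval -0.61 to -0.21, adjusted p = 0.0190 by edgeR), and DESeq2 gave -0.41 with an adjusted p of 0.00926. The value stayed between -0.44 and -0.37 when any 1 sample was left out. The adjusted p by edgeR was then 0.0541 without isotype replicate 1, 0.285 without isotype replicate 2, 0.189 without anti-PD1 replicate 1, and 0.432 without anti-PD1 replicate 2. With anti-Lag3 the log2 fold change was -0.31 (SE 0.10, adjusted p = 0.593 by edgeR), and anti-PD1 against anti-Lag3 was -0.10 (SE 0.10, 95% interval -0.30 to 0.10).

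Foxo1 gave 90.9 and 99.8 CPM in isotype, 81.9 and 109 CPM with anti-PD1, and 75.9 and 104 CPM with anti-Lag3. All groups overlapped, and in all 3 groups replicate 1 was the lower. The log2 fold change was 0.01 with anti-PD1 (SE 0.17, 95% interval -0.34 to 0.35) and -0.08 with anti-Lag3 (SE 0.17, 95% interval -0.43 to 0.26), and the sign of the first changed under upper quartile scaling, limma-voom, and the replicate block, and when isotype replicate 1 (-0.06) or anti-PD1 replicate 2 (-0.22) was left out. Its location in the cell, which sets its activity, was not measured.

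**Figure D2:**
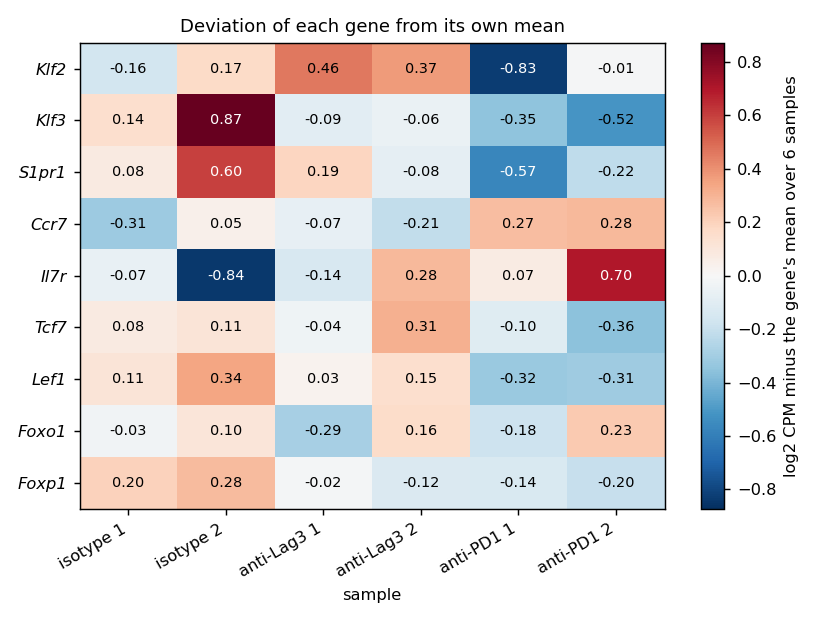
Deviation of each gene (rows) from its own mean over the 6 samples (columns), in log2 CPM, red above and blue below the mean. The largest values are Klf3 in isotype replicate 2 at 0.87, Il7r in the same sample at -0.84, and Klf2 in anti-PD1 replicate 1 at -0.83.

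The comparisons of anti-PD1 and of anti-Lag3 with isotype shared their isotype samples, so that a high or low isotype sample moves both. With anti-Lag3 against isotype, 0 of the 9 genes were called by edgeR, where 5 genes or 0.0421% of all were called, and 2 of 9, Klf3 and Foxp1, had an unadjusted p under 0.05, where 5.96% of all genes did. DESeq2 also called 0 of the 9. The groups did not overlap for 3 of 9 genes, Klf2 above and Klf3 and Foxp1 below, against 34.6% of all genes, 17.3% in each direction. With anti-PD1 against anti-Lag3, edgeR again called 0 of 9, where 0.303% of all genes were called. An unadjusted p under 0.05 was found for 4 of 9, Klf2, Ccr7, Tcf7, and Lef1, where 6.53% of all genes had one, and 7 of 9 did not overlap, 6 below and Ccr7 above, against 35.9% of all genes, 17.7% below and 18.2% above. The median log2 fold change of the 9 genes was -0.08 with anti-Lag3 against isotype and -0.37 with anti-PD1 against anti-Lag3, beside 0.00 over all genes in each. For Lef1 the anti-Lag3 mean of 146 CPM lay nearer to isotype, and for Foxp1 that of 523 CPM lay nearer to anti-PD1, and neither gene passed the test in either comparison with anti-Lag3.

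**Figure D3:**
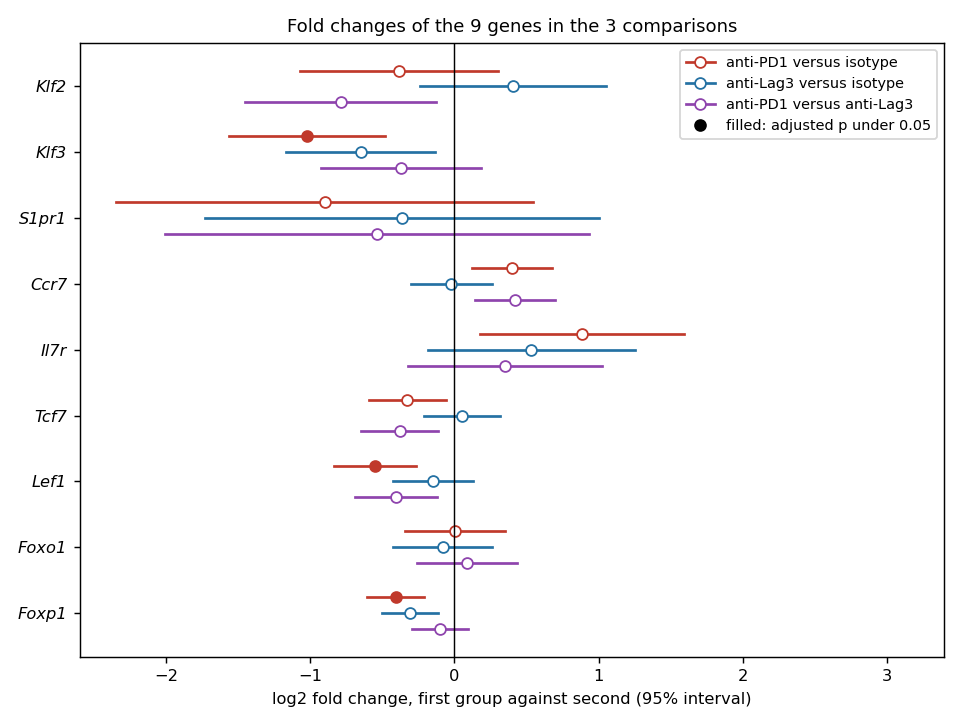
Log2 fold change (x axis, points) with 95% interval (lines) of each gene in the 3 comparisons, by edgeR. Filled points have an adjusted p under 0.05 over all tested genes. Only Klf3, Lef1, and Foxp1 with anti-PD1 against isotype are filled, and the intervals of Ccr7 and Il7r in that comparison lie above 0.

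**Figure D4:**
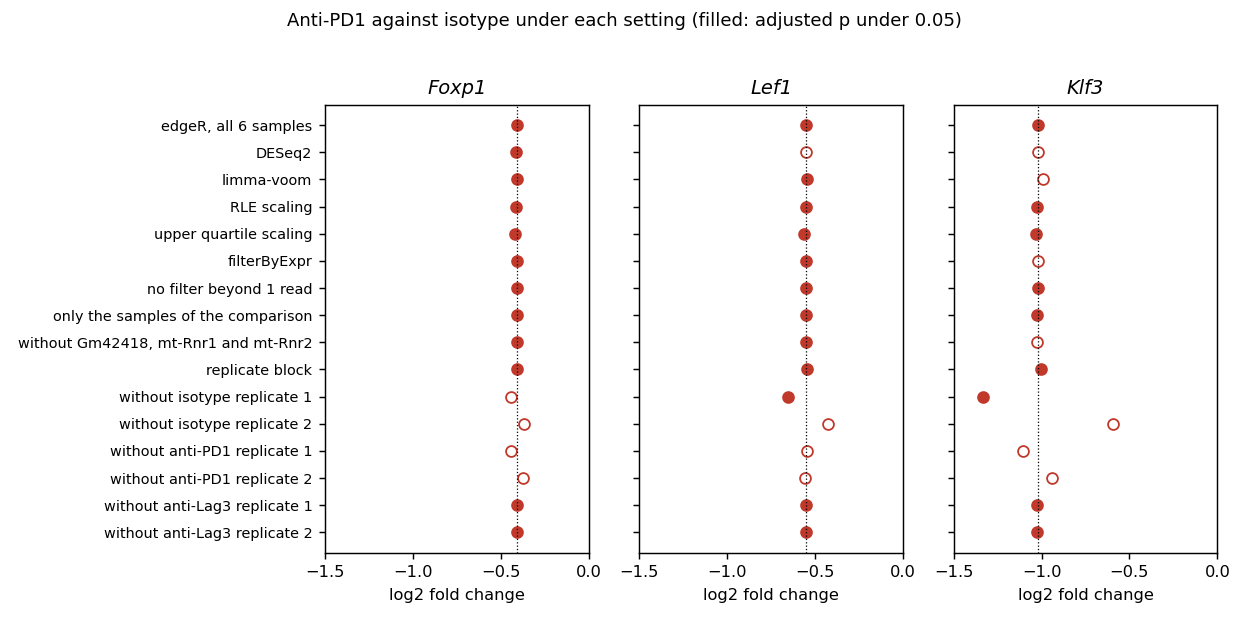
Log2 fold change with anti-PD1 against isotype (x axis) of Foxp1, Lef1, and Klf3 under each tool, scaling, filter, and sample left out (y axis). Filled points have an adjusted p under 0.05, and the dotted line marks the value from all 6 samples. Foxp1 stays within -0.44 to -0.37, while Klf3 runs from -1.33 to -0.60.

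The 9 genes were located on GRCm38 with GENCODE annotation, all protein coding. Klf3 lies at chr5:64803388-64832901 on the plus strand, Lef1 at chr3:131110471-131224356 on the plus strand, and Foxp1 at chr6:98925338-99522721 on the minus strand. Genes of other names overlap Klf3, Lef1, Foxp1, Tcf7, and Foxo1 in the annotation, so reads in the shared stretches are uncertain, and Klf2, S1pr1, Ccr7, and Il7r have no such overlap. Lef1 and Foxp1 each have several annotated starts, and the 3′ counts do not tell which one was used. Promoter windows of RefSeq on GRCm38.p6 were at hand for 7 of the 9 genes, 13 windows in all, and the 250 bases before each start were searched on both strands for a motif of each factor family. The next 4 windows show starts of the 2 genes with the steadiest lower values, each 5′ to 3′ on the gene's strand. Capitals mark GGGTGG or its complement CCACCC, the KLF motif, in the upper window of each gene, and TCAAAG, the complement of the TCF and LEF motif CTTTGA, in the lower window of each gene.
Lef1, chr3:131112541-131112790, plus strand: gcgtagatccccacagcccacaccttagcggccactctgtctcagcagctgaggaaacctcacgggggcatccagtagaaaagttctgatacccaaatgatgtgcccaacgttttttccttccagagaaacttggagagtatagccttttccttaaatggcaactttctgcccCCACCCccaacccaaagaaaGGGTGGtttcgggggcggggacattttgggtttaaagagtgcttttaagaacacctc
Lef1, chr3:131156044-131156293, plus strand: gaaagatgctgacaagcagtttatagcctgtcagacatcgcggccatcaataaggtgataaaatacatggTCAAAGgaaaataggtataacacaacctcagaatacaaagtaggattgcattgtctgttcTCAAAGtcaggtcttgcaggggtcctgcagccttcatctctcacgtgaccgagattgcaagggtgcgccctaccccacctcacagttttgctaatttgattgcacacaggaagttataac
Foxp1, chr6:99028299-99028548, minus strand: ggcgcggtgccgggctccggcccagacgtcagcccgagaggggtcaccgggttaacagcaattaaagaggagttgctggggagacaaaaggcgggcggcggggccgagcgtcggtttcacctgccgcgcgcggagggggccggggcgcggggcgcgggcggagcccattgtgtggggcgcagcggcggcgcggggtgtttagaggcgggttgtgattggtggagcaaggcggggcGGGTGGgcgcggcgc
Foxp1, chr6:99266516-99266765, minus strand: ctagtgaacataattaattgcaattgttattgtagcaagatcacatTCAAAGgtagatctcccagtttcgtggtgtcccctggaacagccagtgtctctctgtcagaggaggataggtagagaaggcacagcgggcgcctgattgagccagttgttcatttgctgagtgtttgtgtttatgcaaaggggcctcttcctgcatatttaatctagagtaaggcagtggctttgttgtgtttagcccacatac
A KLF motif was in 8 of the 13 windows, among them those of Klf2 and Klf3 themselves, and in 28.1% of all 32851 windows. Of the windows with the motif, that of Klf3 and the first 2 of Lef1 lay wholly within annotated GENCODE exons. A Foxp1 window with the motif held 169 exonic bases. The first 2 Lef1 windows overlap and hold the same match, and the windows with the motif had 50.8% to 78.4% G and C, beside a median of 52.4% over all windows. The TCF and LEF motif was in 2 of the 13, the lower window of Lef1 and that of Foxp1, and in 13.8% of all windows. The forkhead motif TGTTTAC was in 0 of the 13 and in 3.17% of all windows. These are matches of letters and describe the sequence only.

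Genes that work with the 9, and for contrast genes raised on T cell activation, were read in 6 lists of 84 genes, of which 83 were tested. With anti-PD1 against isotype 7 of the 83 were called by edgeR, 6 higher and 1 lower, where 0.901% of all genes were called. Of the 7, Icos, Irf4, Tnfrsf4, and Tnfrsf9 were in the activation list, and Stat5a, Satb1, and Tle3 in the others. Because the lists were chosen with earlier results of these data known, the share called is not independent of that choice. With anti-Lag3 against isotype 0 were called, and anti-PD1 against anti-Lag3 gave 1, Tnfrsf9 of the activation list. Of those called with anti-PD1 against isotype, Icos, Satb1, Tnfrsf4, and Tnfrsf9 were the 4 called without isotype replicate 2 or without anti-PD1 replicate 1, and Satb1, Stat5a, and Tnfrsf4 the 3 called without anti-PD1 replicate 2. Without isotype replicate 1 the call of Tle3 was lost and Itga4 was called, and DESeq2 called 6 of the 7, all but Tle3. Tnfrsf9 was not called between the antibodies by DESeq2, which called Satb1, nor when anti-PD1 replicate 1, anti-PD1 replicate 2, or anti-Lag3 replicate 2 was left out. Among other quiescence regulators, 0 of 19 were called, with a median log2 fold change of 0.06. The smallest p-values there belonged to Zc3h12a, an RNase that restrains T cell activation, at 1.16 (SE 0.70), Tob2 at 0.25 (SE 0.18), and Peli1 at 0.17 (SE 0.12). Zc3h12a had few reads, at 3.77 and 2.01 CPM in isotype and 7.67 and 5.32 CPM with anti-PD1.

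Of the homing and egress partners 0 of 14 were called with anti-PD1. Itga4, the integrin α4 chain, was at 38.2 and 55.9 CPM in isotype and 27.8 and 25.8 CPM with anti-PD1, a log2 fold change of -0.82 (SE 0.25, adjusted p = 0.114 by edgeR). Dock2, which drives chemokine-guided movement, was at -0.37 (SE 0.15, adjusted p = 0.429), and Grk2, a kinase that desensitizes chemokine and S1P receptors, at -0.30 (SE 0.16, adjusted p = 0.684 by edgeR). The anti-PD1 samples lay below both isotype samples for all 3. With anti-Lag3 Dock2 was at 90.7 and 88.0 CPM, also below both isotype samples, while Itga4 overlapped isotype and Grk2 lay above. Over the list the anti-PD1 samples lay below isotype for 5 of 14 genes, above for 3, S1pr4, Gpr183, and Cd69, and overlapped for 6. Of all genes 37.4% did not overlap.

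In IL-7 receptor signaling 1 of 12 genes was called with anti-PD1 against isotype, where 0.901% of all genes were called. It was Stat5a, the transcription factor activated by the receptor. Stat5a was at 73.5 and 60.8 CPM in isotype, 126 and 117 CPM with anti-PD1, and 82.7 and 76.1 CPM with anti-Lag3, a log2 fold change of 0.85 with anti-PD1 (SE 0.16, adjusted p = 0.00164 by edgeR). Like Il7r it was higher in both anti-PD1 samples than in both isotype samples. Socs1, an inhibitor of the same pathway, was at 0.63 (SE 0.20, adjusted p = 0.181) and Mcl1, a survival factor, at 0.27 (SE 0.12, adjusted p = 0.492 by edgeR).

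None of the 16 genes of the PI3K, AKT, and FOXO axis was called with anti-PD1 by edgeR. An unadjusted p under 0.05 was found for 2 of them, and for 8.12% of all genes. Pik3cd, the PI3K catalytic subunit of lymphocytes, was at -0.35 (SE 0.15, adjusted p = 0.470 by edgeR). Inpp5d, the phosphatase SHIP1, was at -0.67 (SE 0.33, adjusted p = 0.613). Sgk1, a kinase that acts on FOXO factors, had at most 3.34 CPM in any sample. It was at 0.47 and 0 CPM in isotype, 1.44 and 2.45 CPM with anti-PD1, and 2.53 and 3.34 CPM with anti-Lag3. Both antibody groups lay above isotype for Sgk1, at few reads per sample. The list's median was -0.07, beside 0.01 for Foxo1 itself.

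Among TCF and LEF partners 2 of 12 genes were called with anti-PD1 against isotype, in opposite directions, where 0.901% of all genes were called. Satb1, a chromatin organizer that cooperates with TCF1 and LEF1 in T cells, rose with a log2 fold change of 0.53 (SE 0.08, adjusted p = 7.54e-05 by edgeR). It stood at 1078 and 998 CPM in isotype, 1487 and 1517 CPM with anti-PD1, and 1176 and 1190.1 CPM with anti-Lag3. Tle3, a corepressor recruited by TCF and LEF factors, fell by 0.72 on the log2 scale (SE 0.17, adjusted p = 0.0161 by edgeR), from 108 and 112 CPM to 71.9 and 62.6 CPM, with the direction of Lef1. The call of Tle3 was lost by DESeq2 and when any 1 isotype or anti-PD1 sample was left out. With anti-Lag3 Tle3 was at 91.1 and 74.7 CPM, also below both isotype samples. Myb, a further factor of early and memory T cells, was at 53.7 and 65.2 CPM in isotype and 37.4 and 34.3 CPM with anti-PD1 (log2 fold change -0.73, SE 0.21, adjusted p = 0.0923 by edgeR), outside the threshold. With anti-Lag3 Myb was at 50.2 and 50.1 CPM, below both isotype samples as well.

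For contrast, 4 of 13 tested activation genes were called with anti-PD1, all higher, beside 0.901% of all genes called: Tnfrsf4 (OX40) at 0.81 (SE 0.11), Tnfrsf9 (4-1BB) at 1.05 (SE 0.19), Icos at 0.58 (SE 0.09), and Irf4 at 0.51 (SE 0.11). Their adjusted p-values by edgeR were 1.47e-05, 0.000518, 8.59e-05, and 0.00802. Their isotype and anti-PD1 samples did not overlap, as in 37.4% of all genes. The paper already reports the called genes as raised by this antibody in the same samples. The list was chosen with earlier results of these data known, so the share called is not independent of that choice. Nr4a3 itself was at -0.70 (SE 0.23, adjusted p = 0.195 by edgeR).

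**Figure D5:**
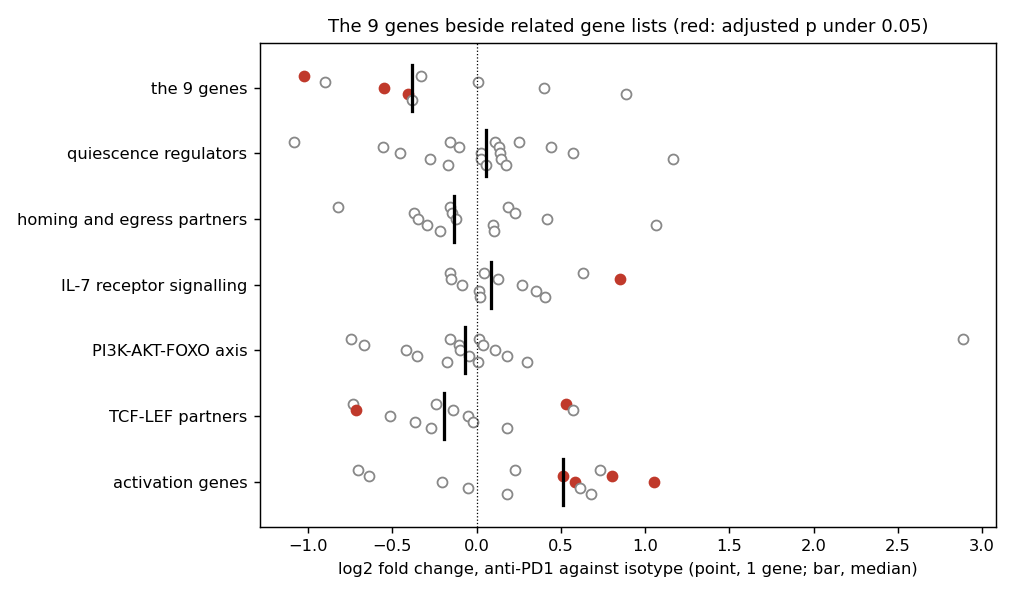
Log2 fold change with anti-PD1 against isotype (x axis) of each tested gene (points) of the 9 genes and of 6 related lists (y axis), with the list's median as a bar. Red points have an adjusted p under 0.05. The median of the 9 genes is -0.38, that of the quiescence regulators 0.06, and that of the activation genes 0.51.

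The mean profile of the 9 genes, each standardized over the 6 samples, was highest in isotype replicate 2 at 0.66 and lowest in anti-PD1 replicate 1 at -0.66. By Euclidean distance over the 6 samples, among 5427 other genes with a mean of at least 20 CPM, the nearest were Pithd1 (distance 0.320), Tespa1 (0.323), Dlst (0.387), Cdk2 (0.413), and Izumo1r (0.481). Izumo1r, the folate receptor 4 of CD4+ T cells, was at 51.8 and 77.7 CPM in isotype, 26.4 and 40.1 CPM with anti-PD1, and 49.8 and 67.2 CPM with anti-Lag3. Of the 5 only Izumo1r was called with anti-PD1 against isotype (log2 fold change -0.96, adjusted p = 0.0209 by edgeR). The 5 were picked for closeness to a profile of these same samples, so their lower values with anti-PD1 come with the choice. The profile also averages Ccr7 and Il7r, which were higher with anti-PD1, with genes that were lower.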

How the data were processed

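CD4+ Blue+Red+ T cells from 6 spleen samples were profiled. Per the methods, the authors made QuantSeq 3′ libraries, trimmed with Bbduk, aligned to GRCm38 (mm10) with STAR 2.5.2a, and used HTSeq to count reads per gene; the deposited values used are these raw counts. The annotation release and strand setting are not given in the sources used here, so reads of antisense partners cannot be told apart. The authors left out a further replicate of each group, processed as 1 batch, as an outlier. Their rlog table, a transform of the same counts, was not used.

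Genes with at least 10 reads in all were fitted with edgeR 4.0.16 in R 4.3.3 (TMM, quasi-likelihood, all 6 samples, no block, Benjamini-Hochberg threshold 0.05 over 11877 genes), a fit tested on simulated data. Counts of replicates lay further apart than sampling noise allows (chi-square over its degrees of freedom, 2.65 to 3.29), so each sample counted once. Alternatives were DESeq2 1.42.0, limma-voom 3.58.1, other scalings, filters and thresholds, a replicate block, and leaving out each sample. Means are ± SD. Names and positions come from GENCODE M21, promoters from RefSeq.

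The 9 genes and the lists were chosen with earlier results of these data known. Named list genes are those called in any comparison or, up to 3 a list, those with the smallest p with anti-PD1 against isotype, plus the 5 nearest profiles, the antibody targets, Nr4a3, and cell type markers.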

Additional observations from a re-analysis of the deposited data

How the results depend on the processing

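Of 405 fold changes of the 9 genes under the alternatives, 378 kept direction and side of the threshold, 15 lost a call, and 12 changed sign, all of the latter uncalled. With 2 samples a group, leaving 1 out assumes that the lone sample varies like the others. The sign changes were Foxo1 with anti-PD1 against isotype under limma-voom (-0.0023), upper quartile scaling (-0.0050), and the replicate block (-0.0047), and when samples were left out (-0.22 to 0.19). Leaving out samples also turned Foxo1 with anti-Lag3 against isotype (-0.32 to 0.12) and with anti-PD1 against anti-Lag3 (-0.14 to 0.33), Ccr7 with anti-Lag3 against isotype (-0.18 to 0.17), Tcf7 with anti-Lag3 against isotype (-0.13 to 0.21), and Il7r with anti-PD1 against anti-Lag3 (-0.018 to 0.63).

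Of the 9 genes, 3 were called with anti-PD1 against isotype, 1 by DESeq2 (Foxp1) and 0 to 3 when a sample was left out, with 0 without isotype replicate 2, anti-PD1 replicate 1, or anti-PD1 replicate 2. Klf3 also missed the threshold under limma-voom (adjusted p = 0.0759), filterByExpr (adjusted p = 0.0620), and without Gm42418, mt-Rnr1, and mt-Rnr2 (adjusted p = 0.0503). None was called in the other 2 comparisons under any of these settings.

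Of the list genes, 7 were called with anti-PD1 against isotype and 3 to 8 when a sample was left out (4 without isotype replicate 2 or anti-PD1 replicate 1, 3 without anti-PD1 replicate 2). With anti-Lag3 against isotype 0 were called, and 1 (Icos) without a filter beyond 1 read. With anti-PD1 against anti-Lag3 1 was called, and 3 under limma-voom, without that filter, under the replicate block, or at a threshold of 0.1, 2 without Gm42418 and the mitochondrial rRNAs, and 0 to 2 when a sample was left out. The count of 1 was Satb1 by DESeq2 and Cd69 without anti-Lag3 replicate 2, in place of Tnfrsf9. Tle3 with anti-PD1 against isotype lost its call by DESeq2 (6 called) and when any 1 isotype or anti-PD1 sample was left out.

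Of all genes, 107 were called with anti-PD1 against isotype, 69 by DESeq2, 166 at a threshold of 0.1, and 46 to 161 when a sample was left out. With anti-Lag3 against isotype 5 were called, 1 by DESeq2, 0 under filterByExpr or with only the comparison's samples, 20 without a filter beyond 1 read, 3 without Gm42418 and the mitochondrial rRNAs, and 0 to 16 when a sample was left out. With anti-PD1 against anti-Lag3 36 were called, 16 by DESeq2, 58 without that filter, and 3 to 49 when a sample was left out. The cause of these shifts was not tested.

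The labels do not tie replicate numbers to a batch, though the methods call the left-out replicate one, so a shared batch cannot be settled here. Deviations of same-numbered samples from the group means correlated at 0.048, 0.050, and -0.049 over 5433 genes. The replicate block changed no call of the 9 genes, with Lef1 at -0.55 and Foxp1 at -0.41 with anti-PD1 against isotype.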
